A study of Mus musculus with 3 samples.

Results

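The genes of the cytosolic ribosomal proteins were examined in the ChIP-seq data of E13.5 mouse cortices. They were taken from the GENCODE M21 annotation of GRCm38 as the protein-coding genes whose symbol is Rpl or Rps followed by a number, together with Rplp0, Rplp1, Rplp2 and Rpsa, and leaving out the Rps6k kinases. The rule gave 92 of 21951 protein-coding genes. Of these, 77 encode canonical ribosomal proteins, 31 of the small and 46 of the large subunit. The other 15 are 8 paralogs, 6 genes that carry a pseudogene name but are annotated as protein-coding, and Rps19bp1, a binding partner of the Rps19 protein that is not part of the ribosome. The 92 genes lie on all 19 autosomes and the X chromosome, 14 of them on chromosome 7.

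The series held 3 libraries from E13.5 cortices, 1 of input chromatin, 1 of NF-Y-ChIP with an antibody against the NF-YC subunit and 1 of H3K4me3-ChIP. The strain and the number of embryos pooled are not given in the labels. Peak lists of both antibodies were used, and none of the input, with 733 NF-Y-ChIP and 18816 H3K4me3-ChIP peaks. Each antibody was used in a single library and the depth is unknown, so nothing can be tested against replicates. The intervals given are 95% intervals over the genes listed and cover no variation between embryos.

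Ribosomal proteins are needed in near-equal amounts in every growing cell, and their genes are short, strongly transcribed and spread over the genome. Many of them start transcription at a C inside a run of pyrimidines, the start of the 5′ terminal oligopyrimidine tract through which translation of these mRNAs responds to growth signals, and many carry small nucleolar RNAs (snoRNAs) in their introns. NF-Y is a trimer of NF-YA, NF-YB and NF-YC that binds CCAAT boxes, usually a short distance upstream of the transcription start site (TSS). H3K4me3 is a histone mark found at the start of active genes. The comparison asked which ribosomal protein genes carried the mark and which carried an NF-Y peak in the developing cortex.

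As a check of the tissue, an H3K4me3 peak lay within 1000 bp of a TSS at 8 of 8 cortical genes (among them Sox2, Pax6, Emx1, Eomes, Neurod2, Tbr1 and Tubb3). None lay there at 8 genes of other tissues or cell types (Alb, Myh6, Ins2, Cd3e, Krt5, Hba-a1, Pecam1 and Aif1). Fold enrichment was 13.9 at Eomes, 30.1 at Sox2 and 50.6 at Tubb3.

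The promoters of 3 large-subunit genes with 2 CCAAT boxes each are shown first, because an NF-Y peak was called at only some promoters of this kind. Rpl13a had an NF-Y peak there. Rplp0 and Rplp1, which encode proteins of the acidic stalk that contacts translation factors, had none. Each sequence is from GRCm38, runs 5′ to 3′ on the gene strand from 160 bases before the reference TSS to its first 10 bases, and has CCAAT or its reverse complement ATTGG in capitals. The reference TSS is that of the principal annotated transcript, positions are counted from it, and negative positions are upstream. The windows are chr7:45128752-45128921 on the minus strand, chr5:115559307-115559476 on the plus strand and chr9:61914533-61914702 on the minus strand.
Rpl13a: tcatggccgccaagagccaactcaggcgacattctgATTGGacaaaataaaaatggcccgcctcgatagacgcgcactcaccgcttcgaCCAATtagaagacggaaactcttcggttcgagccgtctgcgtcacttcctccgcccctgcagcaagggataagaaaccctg
Rplp0: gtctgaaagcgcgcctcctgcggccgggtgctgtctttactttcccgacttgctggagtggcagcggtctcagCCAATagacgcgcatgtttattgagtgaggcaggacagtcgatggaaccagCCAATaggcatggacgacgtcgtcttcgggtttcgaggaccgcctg
Rplp1: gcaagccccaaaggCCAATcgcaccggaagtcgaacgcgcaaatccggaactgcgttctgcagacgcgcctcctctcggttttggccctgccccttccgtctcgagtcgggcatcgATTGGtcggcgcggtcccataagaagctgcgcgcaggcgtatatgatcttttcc

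NF-Y-ChIP summits lay within 1000 bp of a TSS at 2 of the 92 ribosomal protein genes, among them Rpl13a, which is 2.17% (Wilson interval 0.598 to 7.58%). The background over all protein-coding genes was 3.17% (695 of 21951). Among genes with an H3K4me3 peak the counts were 2 of 82 ribosomal protein genes, 2.44% (0.671 to 8.46%), and 692 of 13767 of all, 5.03%. Both intervals hold the background, so a difference from other genes was not detectable with these numbers.

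At Rpl13a, whose protein is a large-subunit component that also takes part in translational silencing outside the ribosome, the NF-Y peak lay at chr7:45128726-45128975. Its fold enrichment, a ratio of summit signal over local background, was 6.25, with a −log10 q of 8.68. The summit lay 84 bp before the TSS, between an ATTGG at −124 and a CCAAT at −71. By fold the peak ranked 421 of 733, a little below the median fold of the list of 6.75. Its position was one usual for NF-Y in this library, in which summits at protein-coding genes had a median position of −68 with an interquartile range from −157 to −19.

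The counts did not hang on the 1000 bp limit, since they were the same at 500 and 2000 bp. Outside the limit, the nearest summit was 6391 bp from Rps15, a small-subunit gene, and 9195 bp from Rps19bp1. The rule of the study, a peak inside the gene or up to 5 kb upstream, counted 3 of 92 genes (3.26%), near the 3.69% of all protein-coding genes.

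Whether the genes without a peak lacked the binding motif was read from the promoter sequence, 250 bases before to 50 bases after the reference TSS. CCAAT on either strand was present in 27 of the 92 promoters, 29.3% (21.02 to 39.3%), against 38.6% of all protein-coding genes. The interval just holds the background. Of these 27 genes 26 had an H3K4me3 peak, the exception being Rpl10-ps3, and 2 of the 26 had an NF-Y summit, 7.69% (2.14 to 24.1%). Over all marked genes with CCAAT in this window 11.2% had one. Both genes with a summit were among the 11 ribosomal protein genes with 2 boxes, of which 18.2% (5.14 to 47.7%) had one, beside 22.2% (20.4 to 24.2%) of all marked genes with 2 or more.

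**Figure D1:**
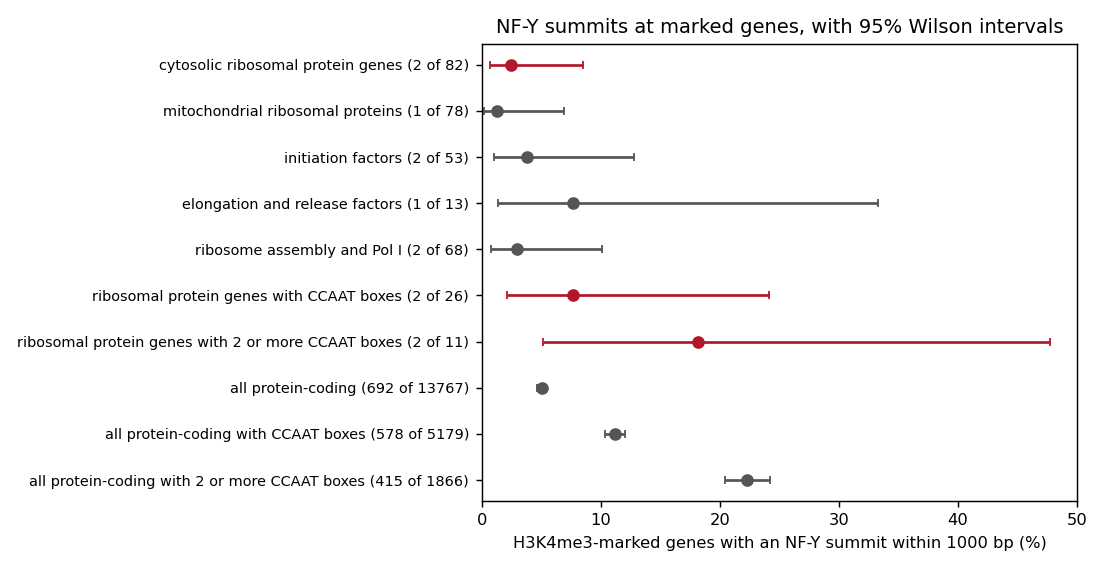
Percentage of H3K4me3-marked genes with an NF-Y summit within 1000 bp of a TSS (horizontal axis) for gene lists of the translation machinery and for all protein-coding genes, with the number of genes in brackets and Wilson intervals as bars. The interval of the ribosomal protein genes, from 0.671 to 8.46%, spans the 5.03% of all marked genes. The values rise with the number of CCAAT boxes among all protein-coding genes. Among the ribosomal protein genes the same 2 genes are counted in ever smaller groups, so their rise shows no trend.

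The boxes of the ribosomal protein genes numbered 38, with a median position of −82, beside −93 over all 12314 boxes. A box between −120 and −40, a stretch around the median position of the NF-Y summits, was found in 10 genes, among them Rpl3, Rpl13a, Rpl23a, Rpl36al, Rplp0, Rplp1, Rps15a and Rps27l. All 10 were marked and 2 of them had an NF-Y summit, 20% (5.67 to 51.0%), against 15.5% (14.2 to 16.9%) of the 2649 marked genes with a box there. The stretch was chosen after the summits were seen.

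The promoters of Rplp0 and Rplp1 shown above illustrate boxes without a called peak. Rplp0 had boxes at −87 and −36 and its nearest NF-Y summit was 83486 bp away. Rplp1 had boxes at −146 and −44 and its nearest summit was 208354 bp away. Their H3K4me3 fold was high, 60.2 at Rplp0 and 60.3 at Rplp1. The 5 CCAAT genes without an NF-Y summit and with the highest H3K4me3 fold were Rpl27a, Rps27l, Rpl23a, Rps24 and Rps29, at 62.9 to 78.0. Boxes without a summit were therefore found at strongly marked promoters too. The other genes with 2 boxes and no NF-Y peak were Rpl10, Rpl10a, Rpl13, Rpl18, Rpl23a, Rpl36al and Rps24. Peaks of low enrichment may be missed at the depth of this library, which is unknown, so these genes are without a called peak rather than shown to be unbound.

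**Figure D2:**
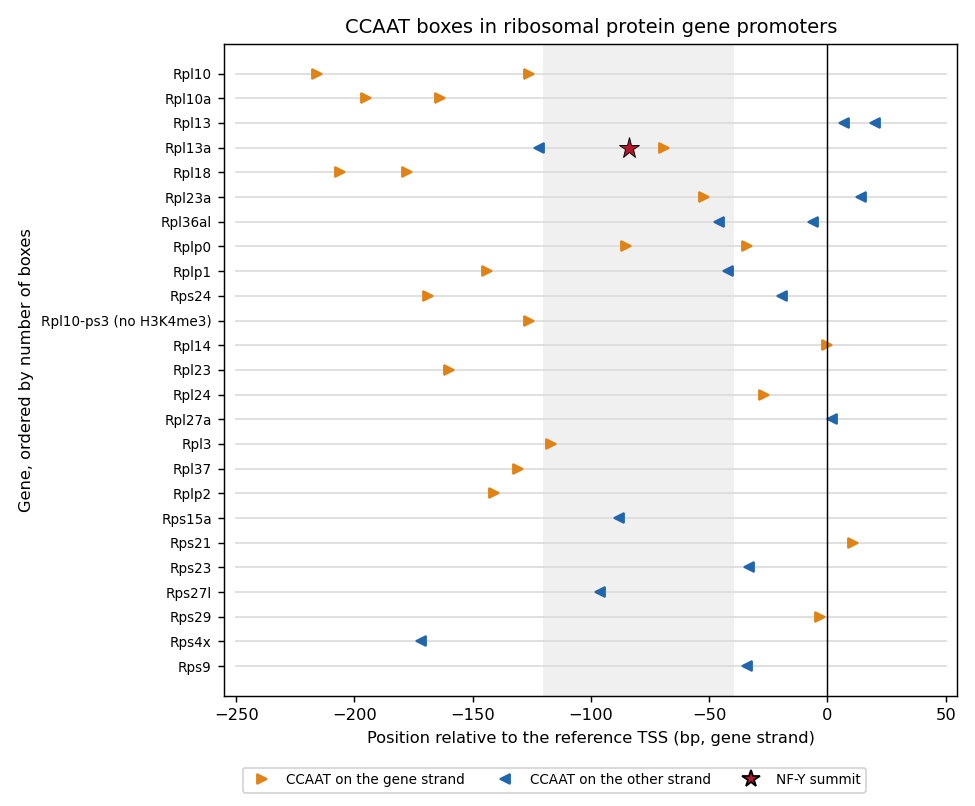
Positions of CCAAT boxes (triangles, by strand) in 25 of the 27 ribosomal protein gene promoters that hold one, in bp from the reference TSS on the gene strand, with NF-Y summits as stars and the stretch from −120 to −40 shaded. The star of Rpl13a sits between its pair of boxes, and no other promoter drawn has a star.

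NF-Y summits in the rest of the translation machinery were counted in the same way, beside the 3.17% of all protein-coding genes. Of 78 mitochondrial ribosomal protein genes only Mrps18b had a summit within 1000 bp (fold 5.88), which is 1.28% (0.227 to 6.91%) of the list. Of 55 initiation factor genes it was 2 (3.64%), Eif4a1 (5.25), the RNA helicase, and Eif4e (8.23), the cap-binding protein. Etf1, the release factor, was the 1 of 13 elongation and release factor genes (7.69%), with a fold of 6.79. Of 68 genes of ribosome assembly and RNA polymerase I it was 2 (2.94%), Ncl (7.71), which encodes nucleolin, and Polr1d (5.80). Measured from the reference TSS, these summits lay at −466 (Mrps18b), −279 (Eif4a1), 997 (Eif4e), −113 (Etf1), −28 (Ncl) and −435 bp (Polr1d). That of Eif4e was thus close to the limit of 1000 bp. The reference promoters of Mrps18b, Eif4e, Ncl and Polr1d held no CCAAT. Fau and Rack1, which encode ribosomal components whose symbols the naming rule misses, had H3K4me3 folds of 55.8 and 40.2 and no NF-Y summit. The intervals of these lists overlap that of the ribosomal protein genes.

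H3K4me3-ChIP peaks lay within 1000 bp of a TSS at 82 of the 92 genes, 89.1% (81.1 to 94.0%), beside 62.7% of all protein-coding genes. All 77 canonical genes were marked, 31 of 31 for the small and 46 of 46 for the large subunit, which allows a share from 95.2% upwards. No gene in the canonical set was therefore without the mark in E13.5 cortex, and the 10 genes without a peak were all paralogs or pseudogene-named genes.

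Of the 8 paralogs 4 were marked. Rps27l had a fold of 72.9, Rpl22l1 of 61.2, Rpl7l1 of 50.5 and Rpl36al of 48.7, all above the median of marked genes of 39.9. The unmarked paralogs were Rpl3l, a form of Rpl3 known from heart and skeletal muscle, Rpl10l and Rpl39l, known from testis, and Rps27rt. Their nearest H3K4me3 peaks were 3326 bp (Rpl3l), 935894 bp (Rpl10l), 22425 bp (Rpl39l) and 3320 bp (Rps27rt) from a TSS. The 6 pseudogene-named genes, Rpl9-ps1, Rpl9-ps6, Rpl10-ps3, Rpl36-ps4, Rpl36a-ps1 and Rps12-ps3, all lacked a peak, with the nearest 18703 to 107841 bp away. All 7 single-exon genes of the set were among the 10 unmarked genes. Rps19bp1 was marked, at 63.4. Single-exon copies resemble their parent transcripts closely, and reads that fit several places in the genome cannot be assigned with certainty. Whether this touched the 10 genes was not tested.

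Fold enrichment of the strongest H3K4me3 peak at each marked gene ran from 16.5 at Rpl15 to 78.0 at Rpl27a, with a median of 48.4 (interval 44.2 to 54.3). The interquartile range was 39.5 to 59.9. All marked protein-coding genes had a median of 39.9, and an interquartile range of 25.7 to 52.7. Of the 82 genes 60 (73.2%) were above the median of all marked genes, 32 (39.0%) in the top 25% and 4 (4.88%) in the bottom 25%. The ribosomal protein genes thus kept to the middle and upper part of the range and rarely fell into its low end.

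Other genes of translation had similar folds. The median was 45.2 (43.5 to 49.2) for mitochondrial ribosomal proteins, 51.7 (45.2 to 58.7) for initiation factors, 46.4 for elongation and release factors and 49.8 (45.0 to 55.6) for ribosome assembly and RNA polymerase I. Small-subunit genes had a median of 51.5 (40.5 to 59.3) and large-subunit genes of 47.9 (40.7 to 51.0), so the subunits were not distinguishable.

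The 5 highest folds were at Rpl27a (78.0), Rps14 (74.3), Rps27l (72.9), Rpl23a (72.0) and Rps24 (68.3). The 5 lowest were at Rpl15 (16.5), Rpl36a (19.1), Rpl24 (19.5), Rpl36 (21.3) and Rpl5 (26.6). All 5 low genes encode large-subunit proteins. Rpl5 and Rpl11 bind Mdm2 together when they are free of the ribosome, and their folds differed, 26.6 at Rpl5 and 40.1 at Rpl11. Rps19, the gene most often mutated in Diamond-Blackfan anaemia, had a fold of 62.5, and Rps6, whose protein is the substrate of S6 kinases, 59.9. Rplp2, the partner of Rplp1 in the stalk, had 61.9. Rpsa, which has also been described as a laminin receptor, had 40.5, Rpl38, needed for translation of Hox mRNAs in the mouse embryo, 42.7, and Rpl10, a large-subunit protein that joins late in assembly, 34.8. Genes of the stalk were alike, at 60.2 to 61.9, while the others of this group were scattered over the range. Rpl10, Rpl36a, Rpl39 and Rps4x, the X-linked genes of the set, were all below the median of all marked genes, at 34.8, 19.1, 26.7 and 35.5. Over all 467 marked X-linked protein-coding genes the median was 25.9 (24.4 to 27.5), so a lower fold was common to the chromosome. This was noticed after the values were seen.

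Width of the same peaks had a median of 1580.5 bp (1469 to 1723), beside 1404 bp over all marked genes, and an interquartile range of 1353 to 1913 bp. Of the 82 peaks 1, at Rps19bp1 (1028 bp), was in the bottom 25% of all marked genes, and 24 were in the top 25%. After Rps19bp1 the narrowest were at Rpl37a (1040 bp) and Rpl27 (1083 bp). The widest were at Rpl7 (3116 bp), Rpl7a (2599 bp) and Rpl39 (2466 bp). Mitochondrial ribosomal protein genes had narrower peaks, with a median of 1294 bp (1142 to 1425), an interval that does not overlap that of the cytosolic set. Initiation factors (1675 bp, 1293 to 1859), elongation and release factors (1659 bp, 992 to 2338) and ribosome assembly genes (1519 bp, 1353 to 1658) overlapped it.

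Across all 13767 marked genes fold and width rose together, with a Spearman correlation of 0.487. Among the 82 ribosomal protein genes it was −0.193. Their folds began at 16.5 and their widths at 1028 bp, while those of all marked genes began at 2.51 and 178 bp. The ranges were not matched, so the 2 correlations are not directly comparable. Rpl15, with the lowest fold, had a wide peak of 2319 bp, and Rps24, with the fifth highest fold, a narrow one of 1131 bp. The correlations are across genes of 1 library, which share its depth, and genes are not independent replicates.

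**Figure D3:**
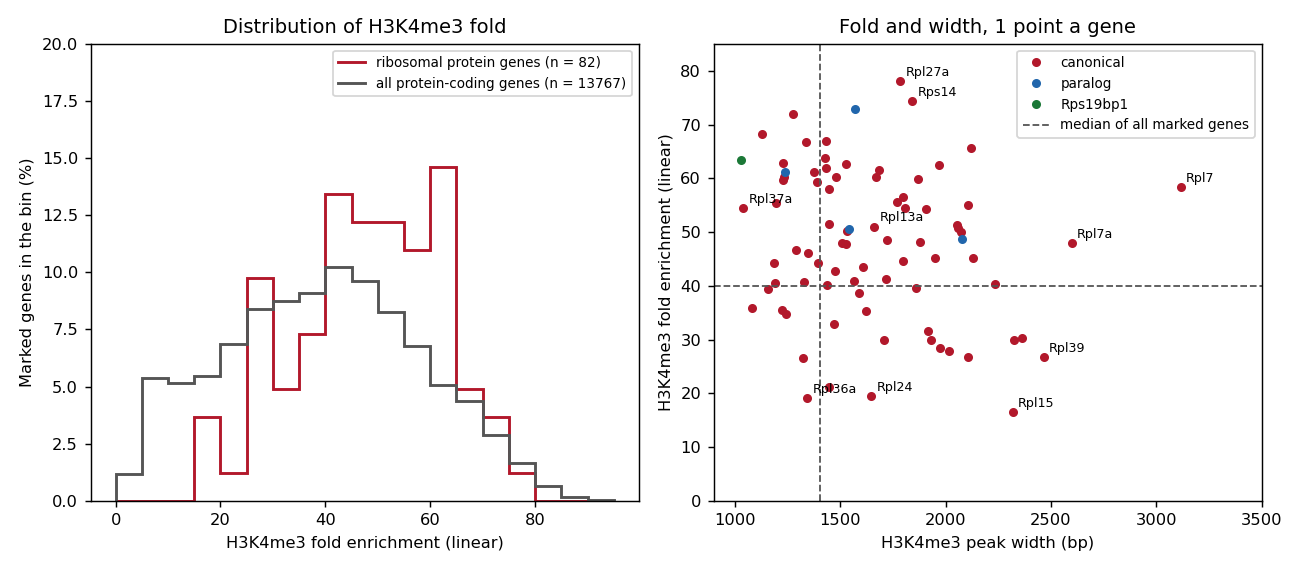
Left, percentage of marked genes (vertical axis) in bins of 5 units of H3K4me3 fold enrichment for ribosomal protein genes and all protein-coding genes. Right, fold enrichment against peak width in bp with 1 point per gene, coloured by class, and dashed lines at the medians of all marked genes, 39.9 and 1404 bp. The ribosomal protein genes are shifted to higher folds and their points show no rise of fold with width.

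Measured from the reference TSS, the mark reached further into the ribosomal protein genes than into all marked genes together. Edges were not measured from other annotated TSSs. The downstream edge of the strongest peak had a median of 1144 bp from the reference TSS (1087 to 1205), against 901 bp over all marked genes, while the median upstream edges were −450 (−554 to −289) and −448 bp. Among other translation genes the downstream edge was at 1075 bp (881 to 1188) for initiation factors and 1328 bp (743 to 1356) for elongation and release factors, which overlap the set, and at 808 bp (762 to 854) for mitochondrial ribosomal proteins and 882.5 bp (825 to 950) for ribosome assembly and RNA polymerase I. At 400 bp downstream 98.8% of the marked ribosomal protein genes were under a peak and 86.7% of all marked genes. At 800 bp the shares were 96.3 and 59.3%, and at 1000 bp 80.5 and 40.0%. At 1500 bp they were 13.4 and 14.96%. The peaks of ribosomal protein genes thus ended within a narrow stretch, and few had a long reach downstream.

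**Figure D4:**
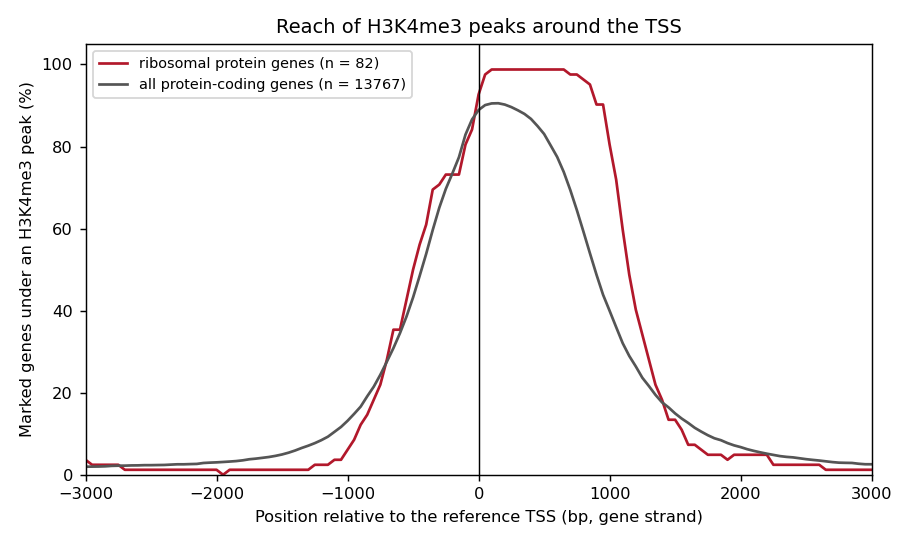
Percentage of marked genes under any H3K4me3 peak (vertical axis) at each position from 3000 bp upstream to 3000 bp downstream of the reference TSS, for 82 ribosomal protein genes and 13767 protein-coding genes. The lines differ most downstream of the TSS, with 80.5 against 40.0% at 1000 bp, are close again at 1500 bp, and cross upstream, with 69.5 against 59.7% at −350 bp and 6.10 against 13.2% at −1000 bp.

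Gene length differed too. The median gene length was 3226.5 bp in the set and 17403 bp over all protein-coding genes, so that the strongest peak covered a median of 37.2% of the gene, against 3.45% over all marked genes. Rpl36, of 828 bp, was covered whole. Among marked genes of 1000 to 10000 bp, 77 of the set and 3096 in all, the downstream edge was at 1140 against 869 bp, the fold 48.7 against 35.6 and the width 1591 against 1328 bp. Within this range the median gene length was still 3243 against 5416.5 bp, so lengths were not matched, and the part of gene length in the differences was not tested. The range was chosen after the values were seen.

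Summits of the mark lay a median of 280 bp downstream of the reference TSS (235 to 325), against 205 bp over all marked genes. The value depended on the TSS used. To the nearest of all annotated TSSs the medians were 115.5 (55 to 162) and 122 bp, so the difference was no longer seen. The marked ribosomal protein genes had a median of 6 annotated TSSs and all marked genes 5. Of the 82 summits 63 lay within 500 bp downstream of the reference TSS. A summit upstream of the TSS was found at 4 genes, 4.88% (1.91 to 11.9%), against 18.5% (17.9 to 19.2%) of all marked genes. They were Rpl7 (−493 bp), Rpl7a (−351 bp), Rps2 (−321 bp) and Rpl3.

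At Rpl3, Rpl18 and Rpl41 the strongest of several peaks lay at another annotated TSS. That of Rpl3 was at −8148 bp, next to a TSS of Syngr1, and its fold of 40.7 barely exceeded the 40.1 of the peak at the Rpl3 reference TSS. That of Rpl18 was 2983 bp downstream next to a TSS of Sphk2, and that of Rpl41 1711 bp downstream next to a TSS of Zc3h10. Which gene the mark belongs to cannot be told apart there. With the peak nearest to any annotated TSS in place of the strongest, the medians of fold, width and position were the same.

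**Figure D5:**
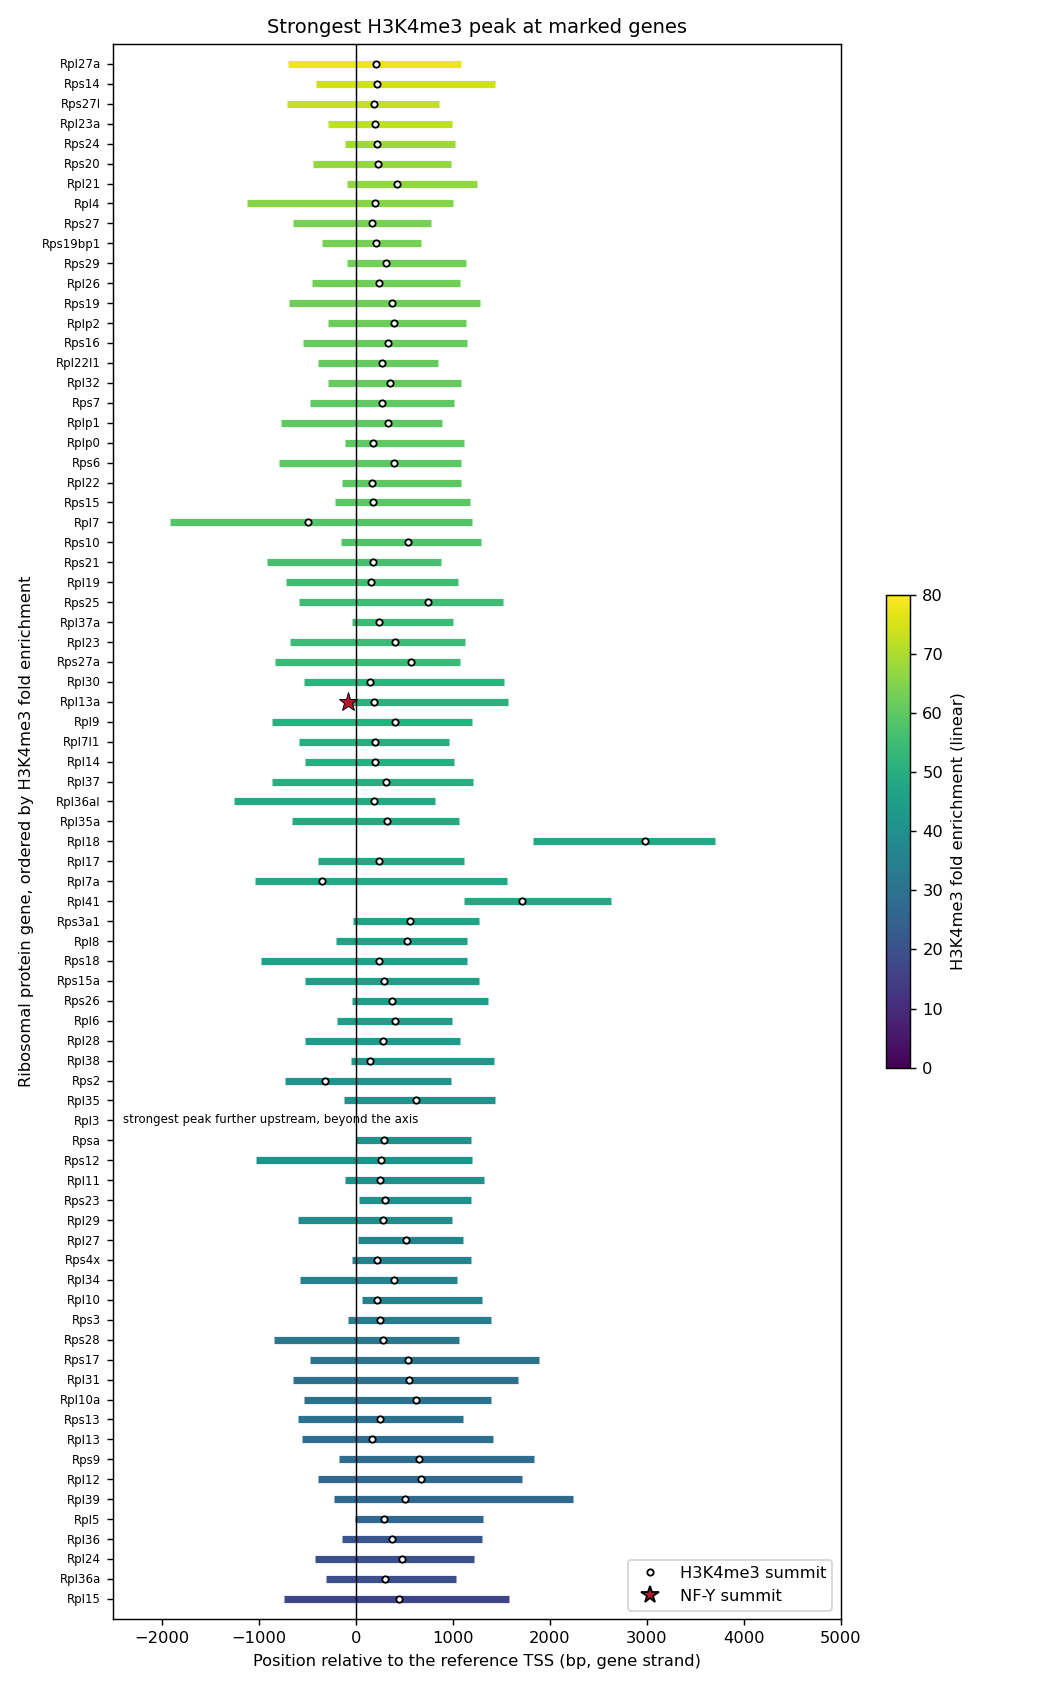
Strongest H3K4me3 peak (bar) and its summit (circle) at 78 of the 82 marked ribosomal protein genes, in bp from the reference TSS on the gene strand, ordered and coloured by fold enrichment, with the NF-Y summit of Rpl13a as a star. Most bars end near 1000 bp downstream, the bars of Rpl18 and Rpl41 lie wholly downstream of the TSS, and that of Rpl3 lies beyond the axis.

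Some of these promoters showed a gap in the mark close to the TSS. At 10 of the 82 genes, 12.2% (6.76 to 21.01%), separate peaks had their summits up to 1000 bp upstream and up to 1000 bp downstream of the reference TSS, against 4.23% (3.90 to 4.58%) of all marked genes. They included Rpl3, Rpl10, Rpl13a, Rpl22, Rpl37a, Rpl39, Rps23, Rps26 and Rpsa. In all 10 the downstream peak was the stronger, as in 80.9% of the 582 such genes, and the gap was 79 to 229 bp wide. The gap did not always hold the reference TSS. The downstream peak began before it at some genes, such as Rpl13a (−89 bp), Rpl22 (−143 bp) and Rpl39 (−225 bp). It began after the TSS at others, such as Rpl10 (63 bp), Rps23 (31 bp) and Rpsa (3 bp). Rpl13a was the strongest upstream case, with a fold of 24.9 upstream and 51.0 downstream and a gap of 137 bp. Its NF-Y peak spanned most of this gap, with the summit just inside the edge of the downstream peak. The NF-Y summit was 271 bp upstream of the H3K4me3 summit. The count of such gaps was made after the values were seen.

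Neighbours and guests of the genes were compared next. A protein-coding gene on the other strand started within 1000 bp upstream at 12 of the 92 genes (Rpl4, Rpl7a, Rpl9, Rpl12, Rpl15, Rpl18, Rpl35a, Rpl36al, Rps18, Rps25, Rps27 and Rps28), which is 13.04% (7.62 to 21.4%), beside 9.09% of all protein-coding genes. Peaks at the 12 were wider, with a median of 2092.5 bp (1880 to 2130) against 1526 bp (1439 to 1646) at the others, and reached further upstream, to −795 against −388 bp. Over all marked genes the widths were 1756 and 1344 bp. None of the 12 had an NF-Y summit, while 8.13% of all marked divergent genes had one. With 0 of 12, a share of up to 24.2% remains possible.

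snoRNAs were annotated inside 30 of the 92 genes, 32.6% (23.9 to 42.7%), against 1.18% of all protein-coding genes. The 58 snoRNAs of these genes were 15.7% of the 369 hosted by protein-coding genes. Rpl4 held 5 and Rpl13a held 4. H3K4me3 fold did not separate hosts from the rest, with medians of 48.0 (40.7 to 54.4) and 48.6 (43.5 to 55.6).

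Other promoter motifs were counted in the same 300 bases and on both strands. The ETS motif CCGGAAG was found in 26 of 92 promoters, 28.3% (20.1 to 38.2%), against 11.2% of all. The YY1 motif AAGATGGC was found in 6, 6.52% (3.02 to 13.51%) against 3.08%, the GC box GGGCGG in 46, 50% (40.0 to 60.0%) against 45.3%, and the NRF1 motif in 2, 2.17% against 1.21%. TATAAA on the gene strand between 50 and 15 bases upstream was found in 0 of 92, which allows up to 4.01%, against 2.94%. The interval of the ETS motif thus lay above its share among all promoters, while those of YY1 (only just) and the GC box held theirs. ETS motifs were also frequent among mitochondrial ribosomal proteins (37.2%), initiation factors (32.7%) and ribosome assembly genes (39.7%). Elongation and release factors had them in 2 of 13 promoters, 15.4% (4.33 to 42.2%). Of the ribosomal protein genes 25 held none of CCAAT, the GC box and the ETS, YY1 and NRF1 motifs. They include unmarked genes such as Rpl3l, Rpl9-ps1 and Rpl36-ps4. The share over all protein-coding genes was not counted, so whether 25 is unusual is not known. A match describes these letters and not a bound site.

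Starts of the annotated transcripts were read for the pyrimidine run. A C at the reference TSS followed by at least 4 pyrimidines was found in 9 of 92 genes, 9.78% (5.23 to 17.6%), against 2.28% of all protein-coding genes. They included Rpl4, Rpl32, Rpl36, Rpl37, Rpl37a, Rps21, Rps24 and Rps27rt. Annotated starts may be off by some bases. With any annotated TSS the counts were 38.0% against 8.51%, and with a run beginning within 5 bp of the reference TSS 28.3% against 18.3%. The longest 3 runs, of 17 bases at Rps24, 14 at Rpl32 and 8 at Rpl4, are shown. Each sequence is from GRCm38 and has 15 bases before and 25 from the reference TSS, with the run from the TSS on in capitals. The windows are chr14:24490703-24490742 on the plus strand, chr6:115808723-115808762 on the minus strand and chr9:64173360-64173399 on the plus strand.
Rps24: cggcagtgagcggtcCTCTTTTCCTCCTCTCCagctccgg
Rpl32: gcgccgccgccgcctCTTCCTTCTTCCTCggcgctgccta
Rpl4: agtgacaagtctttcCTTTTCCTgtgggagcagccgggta

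The 8 marked genes with such a start had a median H3K4me3 fold of 55.5 (21.3 to 68.3) and the other 74 of 48.0 (43.5 to 51.3). The intervals overlap, and Rpl36, with a run of 6 bases, was among the 5 lowest folds.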

How the data were processed

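Cortices of E13.5 mice were used for input, NF-Y-ChIP and H3K4me3-ChIP, 1 library each. Reads were trimmed by the authors (Trimmomatic), mapped to GRCm38, called mm10, by Bowtie 2 (2.2.8 in the submitters' processing notes) and passed through Samtools, and MACS2 (2.1.2 in those notes) served to call peaks at p < 0.001 for NF-Y-ChIP or q < 0.05 for H3K4me3-ChIP. The input was the negative control of the ChIP. Whether the peak caller used it, and how reads that fit several places were treated, is not given in the sources used here. Fold enrichment, as deposited, is a ratio of summit signal over local background. As deposited, −log10 columns hold each peak's p-value and q-value. A further deposited column, a display score, follows the −log10 p (times 10) in the list of 733 peaks and the −log10 q in the list of 18816. The labels do not tie lists to samples, so the lists were assigned to the antibodies by this score and its threshold. The lists hold no read counts, so depth is unknown.

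Each annotated transcript of a gene in GENCODE M21 gave a TSS. The reference TSS was that of the best APPRIS protein-coding transcript, then the best transcript support level, then the most upstream. A gene was marked when any part of an H3K4me3-ChIP peak, and counted for NF-Y when a summit, lay within 1000 bp of a TSS. With several peaks the strongest was used. Shares have Wilson 95% intervals and medians order-statistic intervals, which cover counting over genes only. Intervals do not replace replicates, and no test was made with 1 library per antibody. The members and lists were chosen with earlier results of these data known. Genes named were all with an NF-Y summit, all unmarked, all paralogs and pseudogene-named genes, the 5 highest and lowest folds, the 3 widest and narrowest, those nearest to the distance limit, the 5 CCAAT genes with the highest fold and no NF-Y summit, and 12 well-known genes. Others were named after their values were seen. A few genes that enter the counts are not reported here by name or value. Functions were tested on simulated data. Tables were handled in pandas 2.3.3, SciPy 1.17.1 and NumPy 2.4.6, sequences in samtools 1.23.1 and pysam 0.24.0, and plots in matplotlib 3.10.9, under Python 3.11.15.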

Additional observations from a re-analysis of the deposited data

How the results depend on the processing

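Of 36 alternatives 28 stayed within the range of the value reported. The share of genes with an NF-Y summit was 2.17 to 3.26% under all alternatives tried (other TSS sets, limits of 500 and 2000 bp, any part of the peak, q < 0.05, canonical genes, the rule of the study). It was below that of all protein-coding genes each time, but every interval held that share. The alternatives recount the same few genes, so the repeated direction adds nothing. The medians of fold and width also stayed in range. The share of marked genes was 100% for canonical genes alone. The summit position fell to 115.5 bp with the nearest of all TSSs. The CCAAT share was 20.7% from 150 bp upstream to the TSS, 47.8% from 500 bp upstream to 100 bp downstream, and 6.52% for CCAAT preceded by 2 purines and followed by C or G and a purine, below all protein-coding genes each time (26.9, 57.6 and 12.1%). The pyrimidine start share was 28.3% within 5 bp, 38.0% at any annotated TSS and 21.2% at RefSeq starts (GRCm38.p6, 66 of 92 genes matched), above all protein-coding genes each time. The RefSeq alternatives, and with them a CCAAT share of 30.3%, were chosen after seeing the data. No replicate could be left out and no paired analysis was possible because there is 1 library per antibody. Unknown depth limits the NF-Y counts, since sites of low enrichment may not have been called.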
